A study of Mus musculus with 8 samples.

Results

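The G1/S cyclins, their kinases and the CDK inhibitors were followed through early mouse development on 8 Affymetrix arrays. The group comprised 10 genes: the D-type cyclins Ccnd1, Ccnd2 and Ccnd3, the E-type cyclins Ccne1 and Ccne2, the A-type cyclin Ccna2, the kinases Cdk4 and Cdk6, and the inhibitors Cdkn1a and Cdkn1b. All probe sets annotated to these genes alone were taken, which gave 28 of the 34945 probe sets that carry a single gene and of the 45101 on the array. The arrays read polyadenylated RNA of mature (MII) oocytes, blastocysts and implantation sites labelled as knockout (KO) of connexin 43 or wild type (WT). Connexin 43 is a gap junction protein encoded by Gja1. There were 1 KO and 1 WT array of oocytes, 2 KO and 2 WT arrays of blastocysts, and 1 KO and 1 WT array of implantation sites. The series title describes the depletion as directed to the oocyte, so that the embryos labelled KO derive from such oocytes. An implantation site also contains uterine tissue, which does not derive from the oocyte, so its KO label does not describe all of its cells. The driver of the deletion, the deleted part of the gene and the genotype of the sires are not given in the sources used here. Nor are the strain and the age of the mice. Nothing in the labels states that replicate arrays came from separate animals or cultures, so the p-values may cover no more than technical spread. The sample titles read exp_a for oocytes, exp_b for blastocysts and exp_c for implantation sites. Differences between stages therefore cannot be told apart from differences between these sets of arrays. In the stage comparisons, the KO and the WT array of oocytes, and those of implantation sites, count as the arrays of their stage.

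A cell commits to DNA replication when cyclin-dependent kinases (CDKs) inactivate the retinoblastoma protein and release E2F transcription factors. D-type cyclins, made in response to growth factors, activate CDK4 and CDK6. E-type and A-type cyclins then activate CDK2, whereas p21, encoded by Cdkn1a, and p27, encoded by Cdkn1b, bind and restrain the cyclin-CDK complexes. The MII oocyte is arrested in the second meiotic metaphase and carries stored maternal mRNA, the blastocyst holds rapidly dividing cells with short gap phases, and the implantation site contains the decidua, in which uterine stromal cells divide and then become polyploid.

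The deposited values are MAS5 signals on a linear scale with a 2% trimmed mean of 500 on every array, and median signals lay between 134 and 220. Background was read from 15 Bacillus control probe sets, and a probe set was called above the control level of an array where it exceeded the brightest of them. That level was 395 and 560 on the KO blastocyst arrays, against 199 and 219 on the WT blastocyst arrays, and 334 on the KO oocyte array, against 132 on the WT oocyte array, so it moved with genotype at both stages. The brightest-on-average Gja1 probe set read 375 and 553 on the KO blastocyst arrays, 9835 on the array of WT replicate 1 and 574 on the array labelled WT replicate 2, whose low signal goes against its label. In oocytes it read 150 in KO and 126 in WT, both below the control level, so it does not tell the oocyte arrays apart, and at implantation sites 28105 in KO and 44493 in WT; the labels of these single arrays are used as given. Of the tissue markers, 7 of 8 oocyte genes were above the control level on both oocyte arrays, and 7 of 7 trophectoderm genes on all 4 blastocyst arrays. At implantation sites 9 of 9 decidual and stromal genes were above it on both arrays. Such counts alone do not set the stages apart. Above it were also 7 of 9 decidual and stromal genes in the WT oocyte, though with a summed signal of 3292 against 111020 in WT sites. On the array labelled WT replicate 2 of blastocysts they were 6 of 9. Trophectoderm genes were 4 of 7 on both oocyte arrays. Cumulus and granulosa genes were 4 of 8 in the KO and 6 of 8 in the WT oocyte. In RNA of whole samples, fewer cells of a type and less RNA per cell cannot be told apart.

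**Figure D1:**
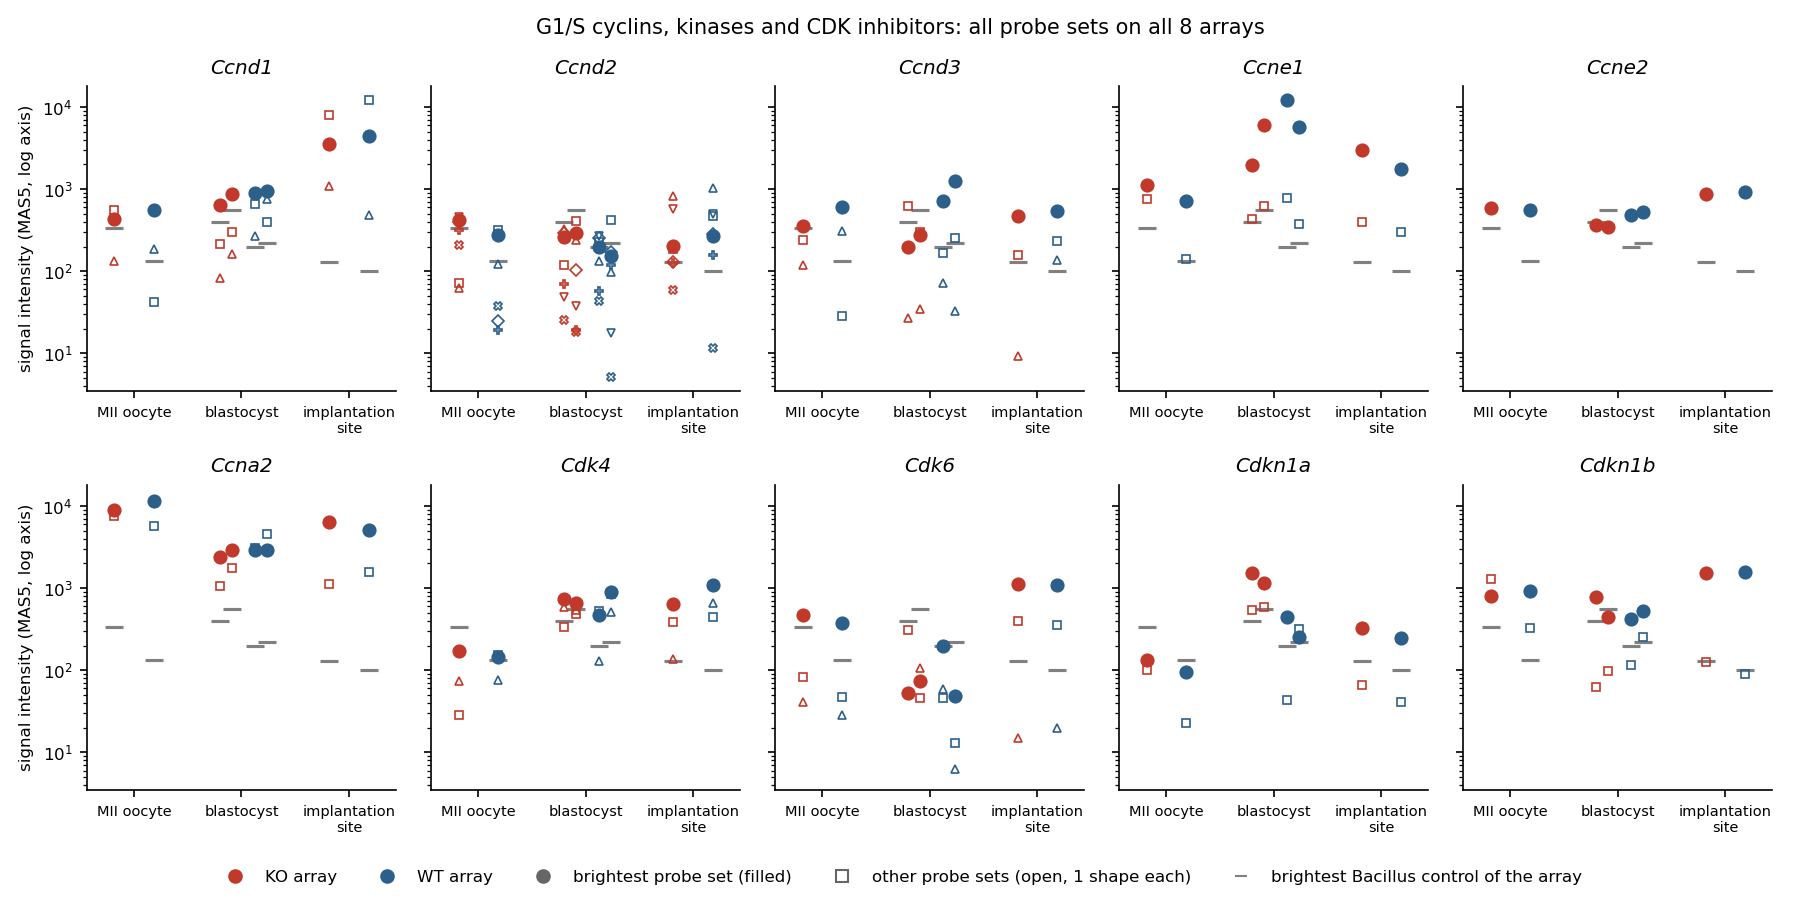
MAS5 signal (log axis) of all 28 probe sets of the 10 genes on each of the 8 arrays, with KO arrays in red left of WT arrays in blue at each stage. Filled circles are the brightest probe set of a gene on average, open shapes its other probe sets, and grey bars the brightest Bacillus control of that array; Ccnd1 is highest at implantation sites, and several Ccnd2 and Cdk6 probe sets lie below the grey bars.

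Of the 28 probe sets, 22 were in the upper 50% of all probe sets by mean log2 signal (a mean signal of at least 151) and entered the tests, which covered 19039 probe sets. The other 6 belonged to Ccnd2 (1416124_at, 1416123_at), Ccnd3 (1438805_at), Cdk6 (1435338_at, 1460291_at) and Cdkn1a (1421679_a_at). Blastocysts differed from oocytes in 9 of the 22 probe sets at an adjusted p under 0.05 (limma, all 8 arrays, genotype as a term), against 43.5% of all probe sets tested. These were 5 that were higher (26% of all probe sets) and 4 that were lower (17.5%), and they covered 6 genes. Implantation sites differed from blastocysts in 7 of 22, all higher, against 32.2% called in either direction and 13.8% called higher among all probe sets. Implantation sites differed from oocytes in 6 of 22 probe sets, 5 higher and 1 lower, against 35.4% of all probe sets, 19.9% higher and 15.5% lower. The shares called in either direction were close to or below those of the whole array in each of the 3 comparisons. The median difference of the 22 probe sets was 0.73 on the log2 scale between blastocysts and oocytes (0.42 over all probe sets), 0.14 between implantation sites and blastocysts (-0.30) and 1.09 between implantation sites and oocytes (-0.01). With the array labelled WT replicate 2 left out, the counts of members were 8, 5 and 6 in the same order. The shares of all probe sets called were then 37.8%, 25.6% and 33.1%, so the whole array lost calls too. Leaving out an oocyte or implantation site array leaves 1 array of that stage, so no count of members is read from those fits. The median difference over all probe sets moved as well. Between blastocysts and oocytes it was 0.52 without the KO and 0.19 without the WT oocyte array. Between implantation sites and blastocysts it was -0.12 without the KO and -0.41 without the WT implantation site array. Calls of single probe sets that were lost in this way are given with each gene below.

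**Figure D2:**
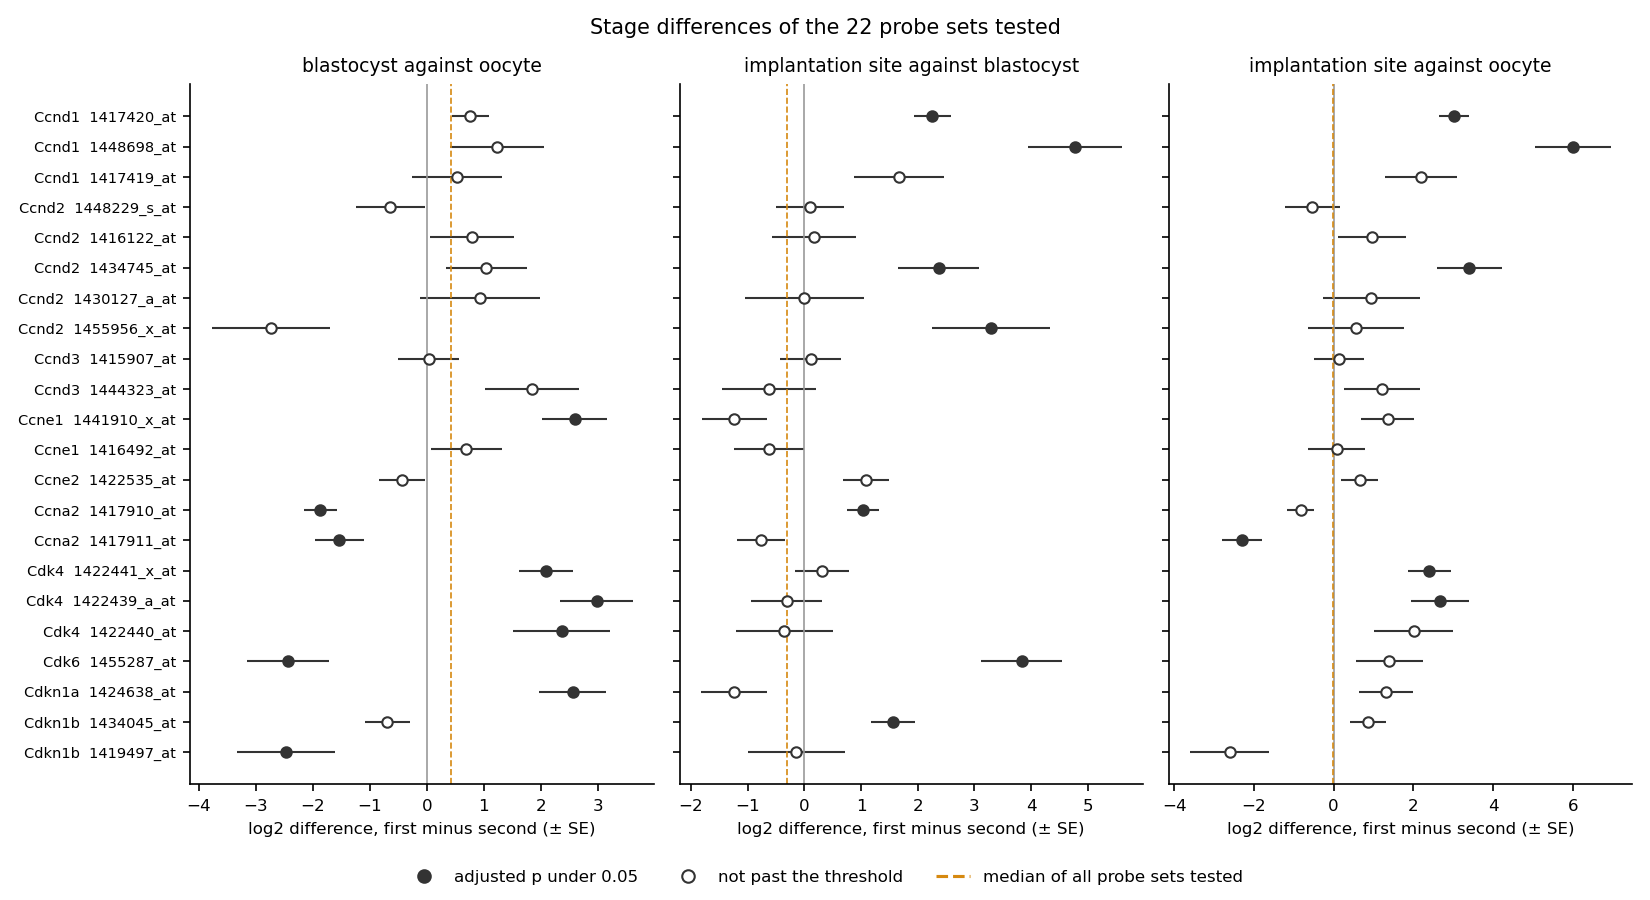
Log2 difference between stages (point) with its standard error (bar) for the 22 probe sets tested, from limma over all 8 arrays. Filled points have an adjusted p under 0.05 and the dashed line is the median of all 19039 probe sets; the Ccnd1 probe sets 1417420_at and 1448698_at stand at 2.26 and 4.77 for implantation sites against blastocysts.

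Among the D-type cyclins, Ccnd1 (cyclin D1; chromosome 7, 144929931 to 144939831 of GRCm38.p6) rose at the implantation site. Its probe set 1417420_at read 432 in KO and 557 in WT oocytes, 646 and 884 in KO blastocysts and 898 and 940 in WT blastocysts, and 3555 in KO and 4486 in WT implantation sites. All 8 values were above the control level, and both implantation site arrays stood above the 6 others. The signal was 4.79-fold higher at implantation sites than in blastocysts (log2 2.26, SE 0.33, adjusted p = 0.000496) and 8.14-fold higher than in oocytes (log2 3.02, SE 0.38, adjusted p = 0.000135). Probe set 1448698_at read 8066 in KO and 12110 in WT implantation sites, whereas the other 6 arrays lay between 42.8 and 666. It was 27.3-fold higher than in blastocysts (log2 4.77, SE 0.83, adjusted p = 0.00141), although both KO blastocyst values (215 and 298) were below the control level. Both probe sets kept their calls under every alternative tried. The third, 1417419_at, differed by 1.67 (SE 0.79) and did not pass (adjusted p = 0.126). Decidual and stromal marker genes were measured beside this: their summed signal, carried mostly by the collagens Col1a1 and Col3a1, was 130451 on the KO and 111020 on the WT implantation site array, against 1166 to 2526 on the blastocyst arrays, with all 9 above the control level at the sites and none at 0. Prl8a2, a decidual prolactin, was the one listed gene not higher there than on all 4 blastocyst arrays, with 217 in KO and 211 in WT sites against 165 to 623 in blastocysts. The part of these genes in the Ccnd1 difference was not tested.

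Ccnd2 (cyclin D2; chromosome 6, 127125162 to 127152188) was read by 7 probe sets that did not move together. The brightest on average, 1448229_s_at, read between 154 and 416 over the 8 arrays and was below the control level on all 4 blastocyst arrays. Probe set 1434745_at was above the control level at the implantation site alone, with 833 in KO and 1030 in WT sites, against 240 and 328 in KO blastocysts and 99.1 and 133 in WT blastocysts. Since no blastocyst or oocyte value exceeded the controls, the rise at implantation sites is a lower bound, at least 2.95-fold over blastocysts (adjusted p = 0.0253) and at least 4.41-fold over oocytes (adjusted p = 0.00729). The first call was lost on leaving out the array labelled WT replicate 2 (log2 2.09), the KO implantation site (2.79) or the WT implantation site (1.95); the second was lost without the WT implantation site (2.99) and without the KO oocyte (2.53). Probe set 1455956_x_at read 572 in KO and 494 in WT sites, against 48.2 and 37.9 in KO blastocysts and 267 and 17.7 in WT blastocysts. All these blastocyst values but 267 were below the control level of their array, so the size of the rise cannot be read. The probe set was higher at implantation sites (log2 3.29 as measured, SE 1.04, adjusted p = 0.0311). It lost its call when any of 5 arrays was left out, with differences of 2.62 to 3.51. The remaining 3 Ccnd2 probe sets tested did not pass in any stage comparison.

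Ccnd3 (cyclin D3; chromosome 17, 47505051 to 47599689) did not pass in any stage comparison. Its probe set 1415907_at read 352 in KO and 602 in WT oocytes, 197 and 279 in KO and 713 and 1253 in WT blastocysts, and 474 in KO and 545 in WT implantation sites. Blastocysts differed from oocytes by 0.03 (SE 0.54) and implantation sites from blastocysts by 0.11 (SE 0.54), while the blastocyst arrays themselves spread over the widest range. The correlation of this probe set with 1444323_at over the 8 arrays was r = -0.44.

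Cdk4 (chromosome 10, 127063535 to 127067288), the catalytic partner of D-type cyclins in most cells, rose between the oocyte and the blastocyst in all 3 probe sets. Its promoter window is shown because the 3 probe sets moved together; the capitals mark 4 copies of the E-box CACGTG, the palindromic element bound by MYC-family proteins.

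Cdk4, 250 bases before the start, chr10:127063285-127063534, plus strand: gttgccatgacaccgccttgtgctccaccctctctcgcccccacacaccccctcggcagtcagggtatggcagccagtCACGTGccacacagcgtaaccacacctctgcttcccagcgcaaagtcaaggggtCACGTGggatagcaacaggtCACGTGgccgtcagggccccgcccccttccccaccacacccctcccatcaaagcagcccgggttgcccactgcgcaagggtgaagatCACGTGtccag

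The sequence is that of RefSeq on GRCm38.p6, and an E-box occurs in 6.02% of 32851 such windows. The window of Cdk6 also holds 1 E-box, 220 bases before its start. Probe set 1422441_x_at read 172 in KO and 145 in WT oocytes, 743 and 657 in KO and 465 and 890 in WT blastocysts, and 633 in KO and 1095 in WT implantation sites. Every blastocyst and implantation site value was above both oocyte values, and the KO oocyte value was below the control level. The signal was 4.26-fold higher in blastocysts than in oocytes (log2 2.09, SE 0.48, adjusted p = 0.00403) and 5.29-fold higher at implantation sites than in oocytes (log2 2.40, SE 0.55, adjusted p = 0.00542), the last call being lost without the WT implantation site (1.93). Probe set 1422439_a_at read 28.4 in KO and 152 in WT oocytes, and 334 and 479 in KO and 522 and 849 in WT blastocysts. At both stages its KO values were below the control level and its WT values above it. Relative to oocytes it gave differences of 2.98 in blastocysts (SE 0.63, adjusted p = 0.00262) and 2.66 at implantation sites (SE 0.73, adjusted p = 0.0145). The first was 3.82 on the KO arrays and 2.13 on the WT arrays. Its call against oocytes at implantation sites was lost without the KO implantation site (2.10) and without the KO oocyte (1.73). Probe set 1422440_at was below the control level in both oocytes and was at least 1.82-fold higher in blastocysts (adjusted p = 0.0423), a call lost without either KO blastocyst array, the array labelled WT replicate 2 or either oocyte array (log2 2.11 to 2.37), and without the intensity trend (adjusted p = 0.0552). Implantation sites and blastocysts differed by -0.35 to 0.31 in the 3 probe sets, none of which passed.

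Cdk6 (chromosome 5, 3341004 to 3531008), the other D-cyclin kinase, was low in blastocysts. Its one tested probe set, 1455287_at, read 471 in KO and 379 in WT oocytes, 53 and 74 in KO and 195 and 48.6 in WT blastocysts, and 1134 in KO and 1097 in WT implantation sites. All 4 blastocyst values were below the control level and below every other array. The signal fell at least 1.35-fold in blastocysts relative to oocytes (adjusted p = 0.0169), a call lost without the KO oocyte (log2 -2.07) or the WT oocyte (-2.80). It was at least 3.56-fold higher at implantation sites than in blastocysts (log2 3.84 as measured, SE 0.72, adjusted p = 0.00221), and this call was kept under all alternatives. The dimmer probe set 1435338_at exceeded the control level at the implantation site alone, with 394 in KO and 353 in WT sites. Cdk4 and Cdk6 took opposite directions between oocyte and blastocyst, with each passing its own test.

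Among the cyclins that drive S phase, Ccne1 (cyclin E1; chromosome 7, 38097984 to 38107490) rose in the blastocyst. Probe set 1441910_x_at read 1122 in KO and 716 in WT oocytes, 1987 and 6125 in KO and 12225 and 5783 in WT blastocysts, and 3009 in KO and 1751 in WT implantation sites. It was 6.04-fold higher in blastocysts than in oocytes (log2 2.60, SE 0.57, adjusted p = 0.00331), and the call was lost without the WT oocyte (1.98). The other probe set, 1416492_at, was above the control level on all 8 arrays and differed by 0.70 (SE 0.62), which did not pass. Ccne2 (cyclin E2; chromosome 4, 11190433 to 11204779) read between 343 and 921 on the 8 arrays and passed in no comparison, with 370 and 343 in KO and 480 and 527 in WT blastocysts as its 4 lowest values and both KO blastocyst values below the control level.

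Ccna2 (cyclin A2; chromosome 3, 36564865 to 36573038), which serves both S phase and entry into M phase, was highest in oocytes. Probe set 1417910_at read 8922 in KO and 11548 in WT oocytes, 2396 and 2918 in KO and 2927 and 2928 in WT blastocysts, and 6424 in KO and 5084 in WT implantation sites. The 3 stages did not overlap. The signal fell by 1.87 on the log2 scale in blastocysts relative to oocytes (SE 0.28, 3.65-fold, adjusted p = 0.000282) and kept that call under all alternatives. It was 2.05-fold higher at implantation sites than in blastocysts (log2 1.04, SE 0.28, adjusted p = 0.0167), a call lost without the array of KO replicate 1 (0.97), without the KO implantation site (0.76), in the mean over both probe sets (0.14) and without the intensity trend (adjusted p = 0.0764). Probe set 1417911_at read 7519 in KO and 5783 in WT oocytes, and lower everywhere else, with 1139 in KO and 1582 in WT implantation sites. It fell by 1.54 in blastocysts (SE 0.43, adjusted p = 0.0125) and by 2.30 at implantation sites (SE 0.49, adjusted p = 0.00375), both relative to oocytes; without the KO oocyte these were -0.78 and -1.54 and did not pass, nor did the first without the intensity trend (adjusted p = 0.0526). Between blastocysts and implantation sites the probe sets of this gene disagreed in direction, 1417911_at being lower at implantation sites by 0.76 (SE 0.43) without passing.

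The inhibitor Cdkn1a (p21; chromosome 17, 29090979 to 29100722), a classical target of p53, was higher in blastocysts than in oocytes. The window before its upstream RefSeq start is shown because it holds the p53 element of the gene; the capitals mark a 20-base pair of p53 recognition sites (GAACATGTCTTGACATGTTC), 51 bases before that start.

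Cdkn1a, 250 bases before the upstream start, chr17:29090729-29090978, plus strand: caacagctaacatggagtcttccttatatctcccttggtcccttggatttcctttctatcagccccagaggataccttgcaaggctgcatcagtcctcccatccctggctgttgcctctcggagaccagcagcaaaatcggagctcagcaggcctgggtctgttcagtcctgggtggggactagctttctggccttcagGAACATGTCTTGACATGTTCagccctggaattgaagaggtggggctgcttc

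This sequence is also from RefSeq on GRCm38.p6. The marked pair departs from the recognition pattern at 1 base, the first of its second site, and a pair with no mismatch occurs in 0.00913% of the 32851 windows. A pair with at most 1 mismatch occurs in 0.0761% of them. This tolerance was set after the sequences were seen, so that share is no test of the marked pair. A downstream start of Cdkn1a lies 2790 bases away, and its window holds no such pair. Probe set 1424638_at read 135 in KO and 96.5 in WT oocytes, 1547 and 1150 in KO and 443 and 257 in WT blastocysts, and 328 in KO and 245 in WT implantation sites. All 4 blastocyst values were above the control level and both oocyte values were below it. The rise in blastocysts over oocytes was at least 3.19-fold (log2 2.56 as measured, SE 0.58, adjusted p = 0.00412) and kept its call under all alternatives. Implantation sites differed from blastocysts by -1.24 (SE 0.58, adjusted p = 0.125), and from oocytes by 1.31 (SE 0.68, adjusted p = 0.154).

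Cdkn1b (p27; chromosome 6, 134920401 to 134925525) is the inhibitor that accumulates in quiescent cells. Probe set 1434045_at read 796 in KO and 918 in WT oocytes, 780 and 445 in KO and 423 and 527 in WT blastocysts, and 1538 in KO and 1586 in WT implantation sites. The implantation site values were the 2 highest, and the signal was 2.96-fold higher there than in blastocysts (log2 1.57, SE 0.39, adjusted p = 0.0109). That call was lost without the KO (1.66) or the WT implantation site (1.47) and in the mean over both probe sets (0.71). Probe set 1419497_at fell by 2.47 as measured in blastocysts relative to oocytes (SE 0.86, adjusted p = 0.0365), with 1294 in KO and 324 in WT oocytes, against 63.2 and 98.0 in KO and 117 and 256 in WT blastocysts. All these blastocyst values but 256 were below the control level of their array, so the size of the fall cannot be read. The measured difference was -4.04 on the KO arrays and -0.90 on the WT arrays. Without the KO oocyte the difference over both genotypes was -1.17 and did not pass, nor did it without KO replicate 1 (-2.11), KO replicate 2 (-2.36) or WT replicate 1 (-2.48). The 2 probe sets of the gene had r = -0.04 over the 8 arrays.

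The series asks how loss of connexin 43 alters the transcriptome of each stage. In blastocysts, the only stage with replicate arrays, none of the 22 probe sets differed between KO and WT at an adjusted p under 0.05 (limma, 4 arrays), against 0.0315% of all probe sets (6 of 19039, all 6 higher). At an unadjusted p under 0.05, 5 of 22 differed, against 14.9% of all probe sets. The KO and WT arrays did not overlap in 14 of 22 probe sets, 5 higher and 9 lower in KO, against 48.7% of all probe sets, 23.1% higher and 25.6% lower. The median difference was -0.39 over the members and -0.02 over all probe sets. No member passed under any alternative, including those without the array labelled WT replicate 2. In simulated data of the same size, the blastocyst fit called 0% of 2-fold, 2.99% of 4-fold and 24.2% of 8-fold changes. Those data held few changed probe sets, with noise drawn independently for each value, so the rates need not hold for the real arrays. Differences of these sizes could be missed.

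**Figure D3:**
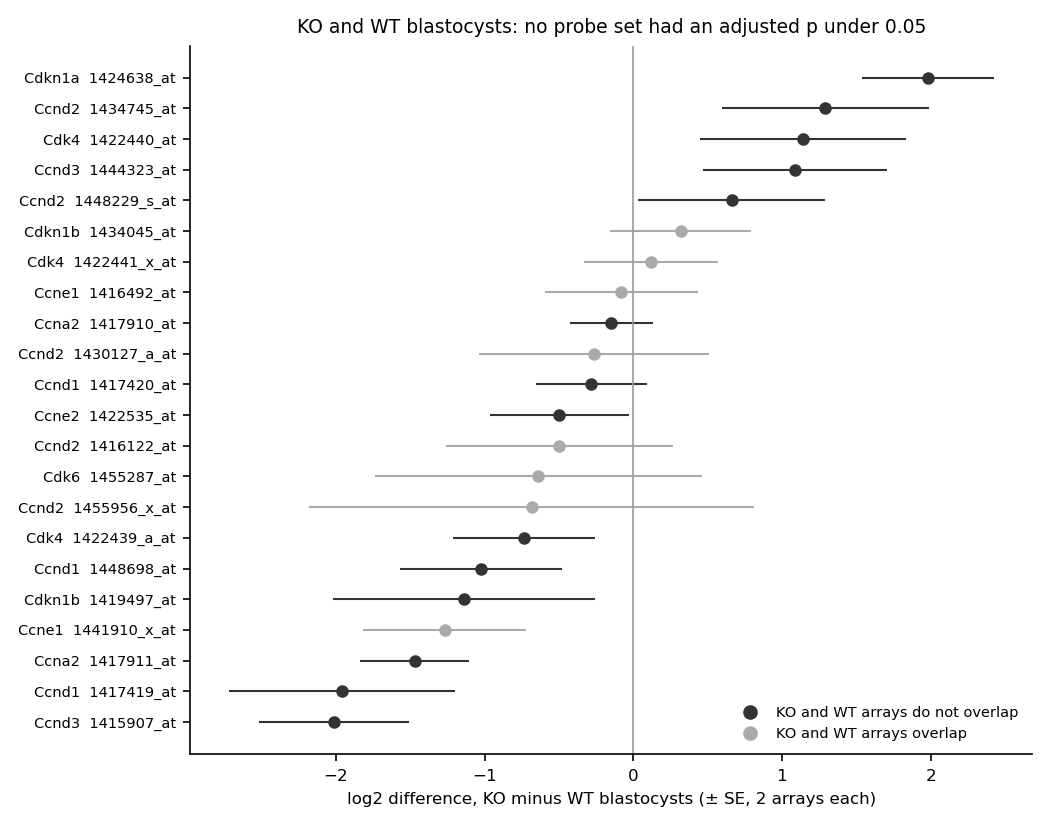
Log2 difference of KO minus WT blastocysts (point) with its standard error (bar) for the 22 probe sets tested, 2 arrays of each genotype, ordered by size. Dark points mark the 14 probe sets whose KO and WT arrays do not overlap; Cdkn1a stands at 1.98 and Ccnd3 1415907_at at -2.01, and none has an adjusted p under 0.05.

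Among the 22 probe sets tested, Cdkn1a had the largest positive difference. The values above, 1547 and 1150 in KO against 443 and 257 in WT blastocysts, give 3.95-fold (log2 1.98, SE 0.44, unadjusted p = 0.00196), with an adjusted p of 0.154 that did not pass. Leaving out 1 WT array gave 1.59 (the array labelled WT replicate 2) or 2.38 (WT replicate 1). The unfiltered probe set 1421679_a_at read 546 and 595 in KO against 43.3 and 315 in WT blastocysts (log2 2.29, SE 0.90, adjusted p = 0.367 over 34945 probe sets). Both KO arrays were above both WT arrays in each Cdkn1a probe set. The Cdkn1a signal also stood above the control level on all 4 arrays in 1424638_at, the higher control level on the KO arrays included.

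Among the same 22, Ccnd3 had the largest negative difference. Probe set 1415907_at read 197 and 279 in KO, below the control level of both arrays, against 713 and 1253 in WT blastocysts, which is at least 2.01-fold lower (log2 -2.01 as measured, SE 0.50, adjusted p = 0.177). Leaving out an array gave differences between -1.60 (the array labelled WT replicate 2 left out) and -2.42 (WT replicate 1 left out). Another probe set of the gene, 1444323_at, pointed the other way, with 624 and 304 in KO against 165 and 255 in WT blastocysts (log2 1.09, SE 0.62). Thus no single direction was read for this gene.

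Ccna2 1417911_at read 1048 and 1783 in KO against 3093 and 4627 in WT blastocysts (log2 -1.47, SE 0.37, adjusted p = 0.177). The brighter Ccna2 probe set 1417910_at had 2396 and 2918 in KO against 2927 and 2928 in WT blastocysts, a difference of -0.15 (SE 0.28). Ccnd1 1417419_at read 82.1 and 163 in KO, below the control level, against 265 and 765 in WT blastocysts. The KO control level exceeded the mean WT signal, so no fold is read, and the measured difference of -1.96 (SE 0.76, adjusted p = 0.296) was -1.20 when the array labelled WT replicate 2 was left out. The other Ccnd1 probe sets, 1417420_at and 1448698_at, had measured differences of -0.28 and -1.02 that did not pass, the KO values of 1448698_at being below the control level too. Ccne1 1441910_x_at, with 1987 and 6125 in KO against 12225 and 5783 in WT blastocysts, differed by -1.27 (SE 0.55, adjusted p = 0.336). The Ccne1 groups overlapped, and its difference ranged from -0.46 without KO replicate 1 to -2.08 without KO replicate 2. The other Ccne1 probe set, 1416492_at, differed by -0.08 (SE 0.51, adjusted p = 0.958).

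**Figure D4:**
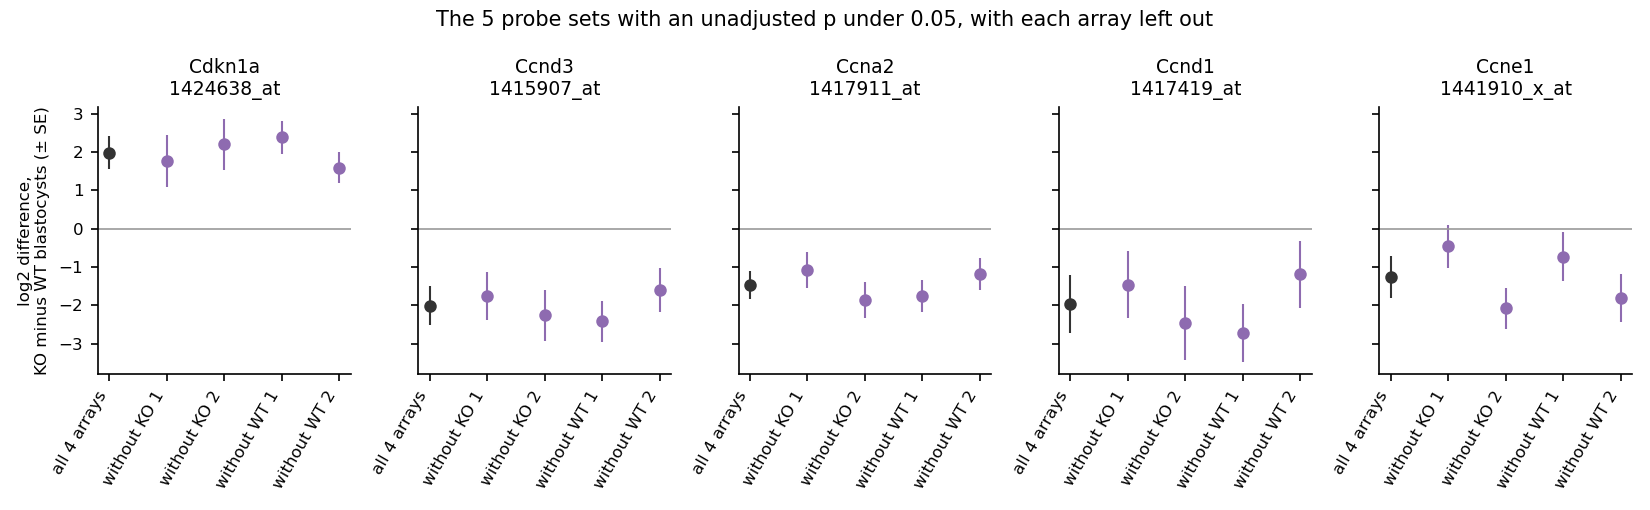
Log2 difference of KO minus WT blastocysts (point, with its standard error as a bar) for the 5 probe sets with an unadjusted p under 0.05, from all 4 arrays (black) and with each array left out in turn (purple). The sign is the same in every fit. For all but Ccne1 the KO and WT arrays do not overlap, so leaving out an array could not change it. The KO values of Ccnd3 and Ccnd1 lie below the control level, and Ccne1 lies at -0.46 without KO replicate 1 and at -2.08 without KO replicate 2.

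Of the 8 marker lists, the summed signal of 4 did not overlap between genotypes in blastocysts, a share similar to the 48.7% of all probe sets tested. Genes of the inner cell mass, the founders of the embryo proper, summed to 10216 and 11200 in KO against 20518 and 13623 in WT blastocysts, with 7 and 6 of 7 above the control level in KO and 7 of 7 in WT. Klf4 and Tdgf1 carried much of this sum, with Klf4 at 2889 and 2552 in KO against 7957 and 4484 in WT blastocysts, whereas Pou5f1, at 1598 and 1315 in KO against 1215 and 997 in WT blastocysts, was higher in KO. Trophectoderm genes summed to 59380 and 59044 in KO against 65627 and 52442 in WT blastocysts, all 7 above the control level, and the KO sums lay between the WT sums. Blood and immune genes summed to 8058 and 14297 in KO against 1410 and 4771 in WT blastocysts, with 2 of 6 above the control level on each KO array and 4 and 2 of 6 on the WT arrays. Most of that sum was Csf1r, a receptor of macrophages that is also expressed in trophoblast, with 6134 and 11937 in KO against 593 and 3881 in WT blastocysts, while Cd68, another macrophage gene, read 57.4 and 25.2 in KO against 209 and 32.9 in WT blastocysts. Cumulus and granulosa genes summed to 2456 and 2847 in KO against 1329 and 2278 in WT blastocysts, with 2 and 1 of 8 above the control level in KO and 4 and 3 of 8 in WT. Endothelial genes summed to 970 and 2015 in KO against 596 and 747 in WT blastocysts, with at most 1 of 5 above the control level on any of the 4 arrays. No defining marker of these lists was at 0, and their part in the differences of Cdkn1a, Ccnd3 and Ccna2 was not tested.

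Over all 3 stages, with stage as a term, 0 of 22 probe sets differed between KO and WT (0% of all 19039 probe sets) and 2 of 22 had an unadjusted p under 0.05, against 6.79% of all. These were Cdkn1a 1424638_at with a difference of 1.22 (SE 0.48) and Ccnd3 1415907_at with -1.25 (SE 0.44), both with an adjusted p of 0.714 (limma). Cdkn1a was higher in KO at each stage, by 0.48 in oocytes, where both values were below the control level, by 1.98 in blastocysts and by 0.42 at implantation sites. Ccnd3 1415907_at was lower in KO at each stage, by -0.78, -2.01 and -0.20 in the same order, with both KO blastocyst values below the control level. These stage values are those that entered the fit, and oocytes and implantation sites have a single array of each genotype. With blastocysts left out, the difference was 0.45 for Cdkn1a and -0.49 for Ccnd3 1415907_at. The other tested Ccnd3 probe set, 1444323_at, differed by 1.17 (SE 0.68) over the 3 stages.

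Oocytes and implantation sites had a single KO and a single WT array, so no replicate check exists there and sizes alone are given. In oocytes, 7 of 22 probe sets were at least 2-fold apart, 5 higher and 2 lower in KO, against 37.7% of all probe sets, 24.4% higher and 13.2% lower. Ccne1 1416492_at, with 756 in KO and 142 in WT oocytes (5.33-fold), and Cdkn1b 1419497_at, with 1294 in KO and 324 in WT oocytes (4.00-fold), were above the control level on both arrays. Ccnd1 1448698_at read 560 in KO and 42.8 in WT oocytes, at least 4.23-fold higher, and Ccnd2 1430127_a_at read 395 in KO and 25.0 in WT oocytes, at least 2.98-fold higher. Other probe sets of the same genes differed in direction: Ccnd1 1417420_at was 1.29-fold lower and Cdkn1b 1434045_at 1.15-fold lower in the KO oocyte. Ccnd3 1444323_at, with 241 in KO and 28.7 in WT oocytes, was below the control level on both arrays. Ccnd2 1416122_at, with 72.1 in KO and 319 in WT oocytes, and Cdk4 1422439_a_at, with 28.4 in KO and 152 in WT oocytes, were lower in KO, where both were under a control level that exceeded the WT signal, so no fold is given.

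At the implantation site, 4 of 22 probe sets were at least 2-fold apart, 1 higher and 3 lower in KO, against 23% of all probe sets, 6.72% higher and 16.3% lower. Ccnd1 1417419_at was 2.22-fold higher in the KO (1081 in KO, 488 in WT), while the brighter Ccnd1 probe sets were 1.26- and 1.5-fold lower. Cdk4 1422440_at was 4.89-fold lower (136 in KO, 663 in WT), Ccnd2 1416122_at 2.50-fold lower (186 in KO, 465 in WT) and Ccnd2 1430127_a_at at least 2.17-fold lower (128 in KO, 284 in WT). Ccne2, Cdk6 1455287_at and Cdkn1b 1434045_at were within 1.05-, 1.03- and 1.03-fold of each other between genotypes.

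The genes around these members in the pathway were read from 8 lists of 93 genes, of which 89 had a probe set and 84 passed the filter. None differed between KO and WT blastocysts (0 of 84, against 0.0426% of 11745 genes by their brightest probe set), and none over the 3 stages (0 of 84, against 0%). Of the 17 origin licensing genes, which load the replicative helicase, 15 had negative differences in KO blastocysts (median -0.53, against -0.01 over all genes, 50.6% of which were negative). At the implantation site the same list had 13 positive and 4 negative differences between the single arrays (median 0.49, against -0.13 over all genes). Of the 15 genes of cyclin and inhibitor turnover, 13 had negative differences (median -0.51). Among them Cul1, the scaffold of the SCF ubiquitin ligase, read 2514 and 3063 in KO against 6617 and 4671 in WT blastocysts (log2 -1.0, SE 0.30, adjusted p = 0.224). Of the 9 measured genes in the list of p53 and its targets, 7 had positive and 2 had negative differences (median 0.94). The largest in size were Zmat3 at 1.41 (SE 0.66), Ccng1 at 1.25 (SE 0.55) and Gadd45a at 1.19 (SE 0.64), none of which passed. The Ccng1 groups overlapped, and both KO values of Gadd45a were below the control level. Bbc3 went the other way, with 181 and 110 in KO, below the control level, against 256 and 306 in WT blastocysts. The single arrays had 2 positive of 9 in oocytes and 3 positive of 9 at implantation sites.

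Between stages the surrounding genes changed in both directions. In blastocysts against oocytes, 49 of 84 genes passed, 26 higher and 23 lower, against 45.7% of all genes, 27% higher and 18.6% lower. Rb1, the gatekeeper that the D-cyclin kinases inactivate, read 9586 in KO and 8864 in WT oocytes, 250 and 220 in KO and 192 and 65.9 in WT blastocysts, and 884 in KO and 1278 in WT implantation sites. All 4 blastocyst values were below the control level, so that the signal was at least 29.4-fold lower in blastocysts than in oocytes (adjusted p = 6.78e-06). Of 10 genes of DNA synthesis 5 were higher and 1 lower in blastocysts, with Prim1, a primase subunit, at least 7.45-fold higher and Fen1, the flap endonuclease, higher by 5.12 (SE 0.33), its blastocyst signals being among the highest on these arrays. Of the turnover genes 8 of 15 were lower and 1 higher, with Cul1 at -3.34 (SE 0.29) and Fbxw7, the receptor that marks cyclin E for destruction, at -2.50 (SE 0.34). Cdkn1c, the p57 member of the p21 family, fell by 3.83 (SE 0.63) and Cdk1, the mitotic kinase, rose by 4.26 (SE 0.37).

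At implantation sites against blastocysts, 31 of 84 genes passed, 14 higher and 17 lower, against 35.1% of all genes, 15.2% higher and 19.9% lower. Cdkn1c rose by 3.41 (SE 0.63, adjusted p = 0.00204), with 1508 in KO and 1263 in WT sites, against 203 and 75.3 in KO and 67.3 and 275 in WT blastocysts. Skp2, which targets p27 for degradation, rose by 1.57 (SE 0.31) and Fbxw7 by 3.37 (SE 0.34). The immediate early gene Fos, an inducer of cyclin D1, was at least 76.3-fold higher, with all 4 blastocyst values below the control level. Origin licensing genes were lower in 6 of 17 and higher in 0, with Cdt1 at -1.83 (SE 0.37) and Mcm7 at -1.41 (SE 0.34), and the phosphatase gene Cdc25a fell by 2.61 (SE 0.31). Against oocytes, 42 of 84 genes passed at implantation sites, 24 higher and 18 lower, against 37.3% of all genes, 20.6% higher and 16.7% lower.

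The genes whose log2 signal followed a member most closely over the 8 arrays were named as a description, since the arrays represent 3 stages and share their libraries and scaling. Taf15 was nearest to Ccnd1 (r = 0.999), Plk4, a centriole duplication kinase, to Ccna2 (r = 0.995), and Aff3 to Cdk6 (r = 0.989). Lrrc61 was nearest to Cdkn1a (r = 0.985), Cbll1 to Cdkn1b (r = 0.981), Brd3 to Cdk4 (r = 0.979) and Rp9 to Ccne1 (r = 0.975). Of the 8 promoter windows found for 6 members, none held 1 of the E2F words TTTCCCGC, TTTCGCGC, TTTGCCGC or TTTGGCGC on either strand, which occur in 1.86% of all windows, and no window was found for the other 4 members.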

How the data were processed

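RNA of 8 samples (oocytes, blastocysts and implantation sites, KO and WT) was read on Affymetrix mouse arrays. The authors deposited signal intensity on a linear scale, made with MAS5 per the submitters' processing notes, where no version is given; no detection calls were used here. The array annotation named 1 gene for 34945 probe sets, several for 932 and none for 9160, and 64 were controls. Values were taken to log2 with no pseudocount, and probe sets in the upper 50% by mean log2 signal (19039) were fitted in R 4.3.3 by limma 3.58.1 (a two-sided eBayes test with trend, adjusted by Benjamini-Hochberg over all 19039 probe sets, threshold 0.05). Blastocysts were fitted alone, and stages and the KO effect over stages in 1 fit of all 8 arrays with stage and genotype. The 2 stages that have a single array of each genotype were described by 2-fold differences. Array values carry no counts, so the number of arrays limits precision. A probe set below the brightest of 15 Bacillus controls on every array of a group was given as a bound, the control standing for the dim group; no added Bacillus RNA is stated in the sources used here.

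Named genes were all members, Gja1, up to 3 genes per list and comparison with the largest differences, and the nearest genes by Pearson correlation. Lists were described by the brightest probe set of each gene. The members, lists and tests were chosen with earlier results of these data known. The labels' replicate numbers are not said to pair arrays. Alternatives were quantile normalization, a common median, a pseudocount of 50, no filter, the upper 30%, the brightest or the mean probe set of a gene, only probe sets without a suffix, no trend, the replicate block, and leaving out each array or stage. Simulated data tested the fits, with 67, 67 and 66 probe sets changed 2-, 4- and 8-fold. Plots were drawn with matplotlib 3.10.9.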

Additional observations from a re-analysis of the deposited data

Results flagged for a closer look

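In 4 member probe sets the KO minus WT difference had one sign in blastocysts, where the KO and WT arrays did not overlap, and the opposite sign with at least a 2-fold size at another stage. The difference between stages was not tested, since the other stages have 1 array per genotype. The share of all probe sets with such a reversal was not counted, so the number of members is no result about them. Both parts of the rule were common: 48.7% of all probe sets tested did not overlap in blastocysts. At least 2-fold apart were 37.7% in oocytes and 23% at implantation sites. Ccnd1 1448698_at differed by 3.71 on the log2 scale in oocytes and by -1.02 in blastocysts, with the WT oocyte and both KO blastocyst values below the control level. Ccnd1 1417419_at differed by 1.15 at implantation sites and by -1.96 in blastocysts as measured. Cdk4 1422440_at differed by -2.29 at implantation sites and by 1.14 in blastocysts. Cdkn1b 1419497_at differed by 2.00 in oocytes and by -1.14 in blastocysts as measured. In Ccnd1 1417419_at and Cdkn1b 1419497_at the KO blastocyst values were below a control level that exceeded the mean WT signal. The size of their blastocyst difference therefore cannot be read, and its sign rests on KO signals not above background. None of these was the brightest probe set of its gene, and the brightest ones of Ccnd1, Cdk4 and Cdkn1b were within 1.73-fold between genotypes at every stage.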

How the results depend on the processing

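Members called between KO and WT numbered 0 in blastocysts and 0 over the 3 stages under all alternatives, while the count over all probe sets in blastocysts was 6, 14 after quantile normalization, 45 with a common median, 0 without WT replicate 1 and 340 higher and 21 lower without the array labelled WT replicate 2. The replicate block called 141 of all probe sets and 0 members; the numbers did not pair the arrays (r = 0.00944 between the KO and WT replicate differences over 19039 probe sets). Members called between blastocysts and oocytes numbered 5 in place of 9 with the upper 30%, with the brightest probe set of each gene or with the mean over a gene's probe sets, since fewer probe sets enter. The shares called over the whole array were 58.4%, 45.5% and 40.7% in the same order. Without the intensity trend they were 4 higher and 3 lower in place of 5 and 4, against 41% of all probe sets. Members called between implantation sites and blastocysts were 4 with the brightest and 3 with the mean probe set in place of 7, and 3 to 8 when an array was left out; all 7 were higher, whereas 1 was lower with the mean (Cdkn1a, -1.78) and 1 without KO replicate 1 (Ccne1 1441910_x_at, -1.76), and 6 were called without the trend; between implantation sites and oocytes they were 2 and 3 in place of 6, and 3 to 7. At least 2-fold apart in oocytes were 11 members after quantile normalization (5 higher, 6 lower) and 5 higher and 5 lower with a common median, in place of 7 (5 higher, 2 lower). At implantation sites they were 2 after quantile normalization (1 and 1) and 2 higher and 1 lower with a common median, in place of 4 (1 higher, 3 lower). Scaling also moved the whole array: the median KO minus WT difference in oocytes was 0.10, and -0.45 with a common median, and probe sets at least 2-fold higher and lower were 4652 and 2522, against 2946 and 3946 after quantile normalization and 2835 and 5636 with a common median; at implantation sites they were 1279 and 3104, against 1559 and 1856 and 2957 and 1796.

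KO minus WT differences that did not pass changed sign as follows, and the cause was not tested. In blastocysts these were Ccna2 1417910_at (0.015 after quantile normalization), Cdk4 1422441_x_at (-0.018 after quantile normalization, -0.13 with a common median, -0.35 to 0.59 leaving out an array), Cdkn1b 1434045_at (-0.41 with the mean over probe sets, -0.085 to 0.72 leaving out an array) and Cdk6 1455287_at (-1.64 to 0.36 leaving out an array). Over the 3 stages these were Ccna2 1417910_at (0.065 after quantile normalization, -0.22 to 0.015 leaving out an array, 0.015 without oocytes), Cdkn1b 1434045_at (-0.064 with a common median, -0.11 to 0.21 leaving out an array, -0.12 without blastocysts), Ccne1 1441910_x_at (0.20 with the mean over probe sets, -0.63 to 0.25 leaving out an array, 0.71 without blastocysts), Cdk6 1455287_at (-0.55 to 0.25 leaving out an array, 0.18 without blastocysts) and Cdk4 1422441_x_at (-0.30 to 0.16 leaving out an array, 0.16 without implantation sites). All called stage differences kept their sign under every alternative that gave a value. Ccne2, not called at implantation sites against blastocysts, was higher there with a common median (1.44), with the upper 30% and without either oocyte array (1.08 each). Without counts no counting interval applies, and signals below the Bacillus level bound what can be read of Ccnd2, Cdk6 and, in KO blastocysts, Ccnd3.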
